A study of Mus musculus with 7 samples.

Results

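Saa3 and 4 further genes for secreted antimicrobial proteins, Lcn2, Lyz1, Lyz2 and Chil3, were examined in retinal microglia (rMG) of Irf8 KO mice. Levels are given library by library for separate pools of mice without and with laser injury. The 5 genes were chosen by symbol from 40743 listed genes, on the basis of earlier results of these same data, so their levels are described here and not tested. Both groups carried the same alleles, Irf8-/- with Cx3cr1GFP/+, on a C57BL/6J background, so the Irf8 deletion and the reporter copy of Cx3cr1 are shared by both groups. The unlasered group consisted of 3 untreated samples, and the lasered group of 4 samples taken a week after laser spots were set on the retina, a model of choroidal neovascularisation (CNV). Each sample was a pool of 3 to 4 mice, with an average of 10000 cells sorted as CD45low, CD11b+, Cx3cr1GFP/+, Ly6C- and Ly6G-. The central 70% of the retina was used for lasered mice, a restriction that is not described for unlasered mice, so laser injury and retinal region cannot be told apart. The mice of the steady state libraries are described as adult, with no age in weeks for the sequenced mice in the sources used here, and wild-type libraries were not analysed here.

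These proteins belong to the innate defence of mucosa, liver and phagocytes. Serum amyloid A proteins are acute phase proteins carried on lipoproteins, and Saa3 is the form made mainly outside the liver, among others by macrophages. Lipocalin 2, the product of Lcn2, captures bacterial siderophores and so withholds iron. Lysozymes cleave the peptidoglycan of bacterial cell walls. In the mouse, Lyz1 is the lysozyme of intestinal Paneth cells and Lyz2 that of macrophages and granulocytes, and Chil3 encodes Ym1, a chitinase-like lectin of alternatively activated macrophages, monocytes and neutrophils.

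Lyz1 and Lyz2 lie next to each other on the minus strand of chromosome 10 (GRCm38, chr10:117287797-117292868 and chr10:117277331-117282321), and much of their sequence is shared. The first 120 coding bases of each, taken from the first-listed GENCODE M21 transcript, are shown because they carry 11 of the differences between the 2 genes, set in capitals. They lie in 1 exon each, at chr10:117282123-117282242 for Lyz2 and chr10:117292719-117292838 for Lyz1, both on the minus strand.
Lyz2: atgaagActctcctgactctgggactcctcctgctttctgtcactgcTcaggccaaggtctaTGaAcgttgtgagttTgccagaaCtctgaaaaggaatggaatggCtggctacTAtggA
Lyz1: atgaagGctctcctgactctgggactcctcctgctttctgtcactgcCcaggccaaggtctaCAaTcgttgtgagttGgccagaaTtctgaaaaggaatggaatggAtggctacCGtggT
Over their 444 coding bases without the stop codon, 422 positions were identical, and over the whole transcripts 92.0% of aligned positions. Of the 1267 stretches of 50 bases in the Lyz2 transcript, 195 occurred unchanged in that of Lyz1.

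Chil3 (chr3:106147554-106167564, minus strand) has a similarly close relative in Chil4. The first 120 coding bases of the pair, joined across introns between chr3:106164227-106167521 for Chil3 and chr3:106214412-106219464 for Chil4, differ at 3 positions, again in capitals.
Chil3: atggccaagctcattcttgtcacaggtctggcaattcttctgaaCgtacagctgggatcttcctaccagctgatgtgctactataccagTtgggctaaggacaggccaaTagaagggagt
Chil4: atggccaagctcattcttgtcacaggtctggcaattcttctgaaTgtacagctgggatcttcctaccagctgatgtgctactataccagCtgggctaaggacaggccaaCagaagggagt
The coding sequences of Chil3 and Chil4 were identical at 94.4% of aligned positions. Saa3 is easier to tell from its neighbour Saa1, with 75.9% of aligned coding positions identical and 9 of 506 stretches of 50 bases of its transcript shared.

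The upstream region of Saa3 is shown because Saa3 had the largest difference of the 5 genes. It covers 226 bases before the start annotated in GENCODE M21 (GRCm38.p6, chr7:46715701-46715926, minus strand), written 5′ to 3′ in the direction of transcription. The letters that match GAAANNGAAA, a motif of interferon regulatory factors (IRF), and TTGCNNAA, a motif of C/EBP factors, are in capitals.
Saa3: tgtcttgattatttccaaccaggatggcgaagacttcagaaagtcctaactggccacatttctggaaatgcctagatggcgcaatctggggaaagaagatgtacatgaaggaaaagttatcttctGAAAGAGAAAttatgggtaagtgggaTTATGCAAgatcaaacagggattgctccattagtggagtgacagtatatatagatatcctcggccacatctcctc
Both motifs were searched on both strands of the 250 bases before the RefSeq start. For Saa3 that start lies downstream of the GENCODE start, so the 250 bases run past the last base shown. Positions are counted from the RefSeq start, not from the end of the sequence shown. The IRF letters began 125 bases before the RefSeq start of Saa3 and were found in 1 of the 5 members and in 2.98% of all 32851 promoters. The C/EBP letters, on the reverse strand of Saa3 between 99 and 92 bases before the start, were found in Saa3, Lcn2 and Lyz1 and in 9.56% of all promoters. GGGNNNNNCC (NF-kB) occurred before Lcn2 and Chil3 and in 45.8% of promoters, TTCNNNGAA (STAT) before Chil3 and in 7.02%, and GAGGAA (PU.1) before Lcn2 and in 23.3%. These are matches of letters, not sites shown to be bound.

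Total reads were between 20427558 and 36022954 in the 3 unlasered and between 37133297 and 45919042 in the 4 lasered libraries, and values are given as counts per 1e+06 counted reads (CPM), so that 1 read was worth 0.0218 to 0.0490 CPM. The sorted cells were rich in microglial transcripts. The 11 microglia markers summed to between 26611 and 31724 CPM in unlasered and between 23647 and 32351 CPM in lasered libraries. Reads of rod photoreceptors were present in all libraries and differed between groups, with 13 rod genes summing to 2130 to 19261 CPM without and 310 to 995 CPM with laser. The targeted gene Irf8 still had reads in every library, 489 to 530 CPM in unlasered and 463 to 582 CPM in lasered samples, which include reads listed jointly with the overlapping Gm20388. Without wild-type libraries these reads do not check the knockout.

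Saa3 (chr7:46711998-46715700, 4 exons) showed the widest separation of the groups. In unlasered rMG its levels were 10.7, 12.7 and 7.27 CPM in replicates 1 to 3. In lasered rMG they were 176, 108, 141 and 46.2 CPM in replicates 1 to 4. The groups did not overlap, and the lowest lasered library, replicate 4, stood at 3.63 times the highest unlasered library. Mean levels were 10.2 ± 2.76 CPM (SD, n = 3) and 118 ± 55.1 CPM (SD, n = 4), a ratio of 11.5, and the log2 fold change on the log2(CPM + 1) scale was 3.28 with a standard error (SE) of 0.41. Among the 17496 genes tested, 5 had a larger log2 fold change. The values rest on 219 to 436 reads per unlasered and 1716 to 7755 reads per lasered library, so counting error is small beside the spread within the lasered group, where the highest library was 3.80 times the lowest.

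Saa1, the liver-type relative of Saa3, followed it at a much lower level. It had 4, 5 and 3 reads in unlasered and 70, 40, 65 and 14 reads in lasered libraries, that is 0.0833 to 0.196 and 0.377 to 1.59 CPM. Its share of the reads of both genes was 1.13% to 1.79% in unlasered and 0.809% to 0.995% in lasered libraries. The exact 95% intervals of these shares overlapped between all 7 libraries, the widest reaching from 0.49% to 4.53%. Whether the Saa1 reads come from Saa1 or from Saa3 transcripts was not tested. Saa2 had at most 1 read per library and Saa4 none.

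Lcn2 (chr2:32384633-32388252, 6 exons) was also higher in each lasered library, at levels near the lower end of what was measured. Its unlasered levels were 2.35, 0.292 and 0.305 CPM. Its lasered levels were 6.32, 3.43, 4.64 and 3.90 CPM. The groups did not overlap, although unlasered replicate 1 was closer to the lowest lasered library, which was 1.46 times as high, than to the rest of its own group. Means were 0.982 ± 1.18 CPM (SD, n = 3) and 4.57 ± 1.27 CPM (SD, n = 4), and the log2 fold change was 1.62 (SE 0.36). Replicates 2 and 3 of the unlasered group had only 10 and 11 reads. Without unlasered replicate 1 the log2 fold change was 2.08.

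**Figure D1:**
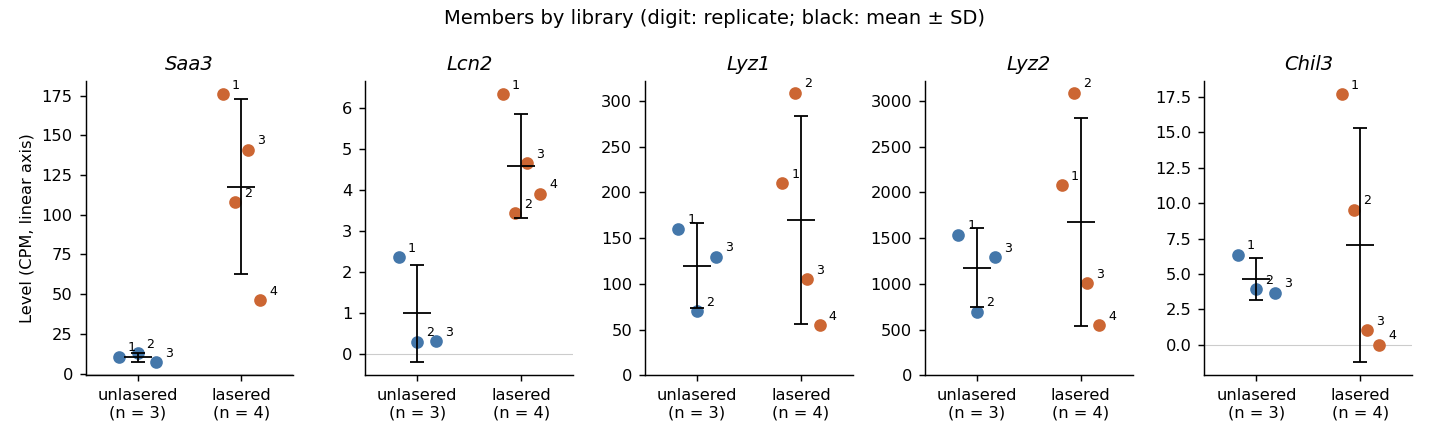
Levels of the 5 members in CPM on linear axes, with each library as a point (blue unlasered, n = 3, orange lasered, n = 4, digit for the replicate) and the group mean ± SD in black. Saa3 and Lcn2 separate the groups, whereas the lasered libraries of Lyz1, Lyz2 and Chil3 spread on both sides of the unlasered ones.

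Saa3 and Lcn2 were the 2 of 5 members with an adjusted p under 0.05, beside 6.93% of all 17496 genes (1213 genes, limma with Benjamini-Hochberg adjustment). Both were higher in lasered rMG, as were 3.86% of all genes by this call. They were also the 2 members whose groups did not overlap, beside 21.0% of all genes. Saa3 kept its call in all 7 leave-outs of a library, and Lcn2 in 1 of 7, that of unlasered replicate 1, while Lcn2 also lost it with edgeR and without a filter on low values. Lcn2 passed the minimum level only through the lasered libraries, the group in which it is high. For that reason, and because the 5 genes were chosen with this very contrast known, nothing is read from these counts.

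Lyz2 was by far the most abundant of the 5, and its level varied strongly within both groups. Unlasered libraries had 1539, 699 and 1291 CPM. Lasered libraries had 2080, 3091, 1007 and 547 CPM. The groups overlapped, with lasered replicates 1 and 2 above and lasered replicate 4 below all unlasered libraries. Means were 1176 ± 432 CPM (SD, n = 3) and 1681 ± 1138 CPM (SD, n = 4), and the log2 fold change of 0.30 was smaller than its SE of 0.54. By mean level Lyz2 ranked 61st of all listed genes in unlasered and 36th in lasered rMG.

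Lyz1 repeated the pattern of Lyz2 at a lower level. Unlasered libraries had 161, 70.0 and 130 CPM. Lasered libraries had 210, 309, 105 and 55.1 CPM. The order of the 7 libraries was the same as for Lyz2, and the log2 fold change was again 0.30 (SE 0.54). For both lysozyme genes it turned slightly negative without unlasered replicate 2 or without lasered replicate 2, reaching -0.09. Lyz1 took between 9.09% and 9.45% of the reads of both lysozyme genes, 9.22% ± 0.154 (SD over the 7 libraries), while the level of Lyz2 ranged 5.65-fold within the lasered group alone. Reads that match both genes cannot be told apart here, so the Lyz1 level is uncertain.

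Chil3 was low and the most variable member. Unlasered libraries had 6.36, 3.94 and 3.69 CPM. Lasered libraries had 17.7, 9.53, 1.02 and 0 CPM. Lasered replicates 1 and 2 lay above and replicates 3 and 4 below all unlasered libraries, and replicate 4 had no read, which with a limit of 3 reads allows up to 0.0808 CPM. The mean was 4.67 ± 1.48 CPM (SD, n = 3) in unlasered and 7.06 ± 8.27 CPM (SD, n = 4) in lasered rMG, but on the log2 scale the difference had the opposite sign, -0.31 (SE 0.89). No direction can be given for Chil3. Chil4 took 9.62% to 13.4% of the reads of both genes in the 6 libraries that had any, with exact 95% intervals that all overlapped.

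**Figure D2:**
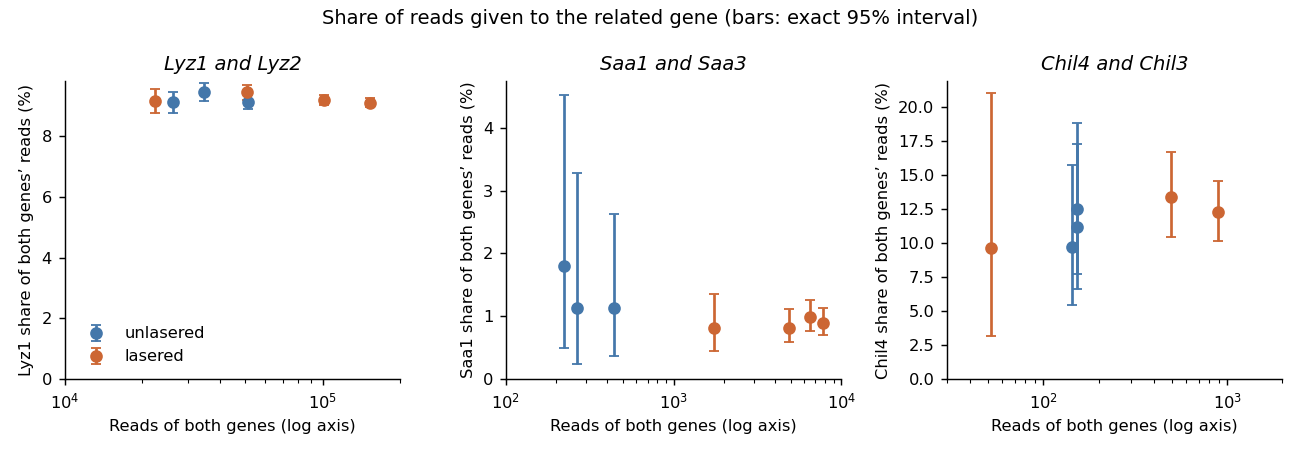
Share of the reads of a gene pair that was counted for the less abundant gene, in percent, against the reads of both genes on a log axis, with exact 95% intervals for counting error (blue unlasered, orange lasered). The Lyz1 share stays between 9.09% and 9.45%, the Saa1 share between 0.81% and 1.79% and the Chil4 share between 9.62% and 13.4%, and lasered replicate 4 is missing for Chil4 because neither gene had a read.

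Levels can be set against each other only per transcript length. Divided by the length of the first-listed transcript, mean levels in unlasered rMG were 894 CPM per kb for Lyz2, 95.1 for Lyz1, 18.5 for Saa3, 3.03 for Chil3 and 1.07 for Lcn2. In lasered rMG they were 1278 for Lyz2, 134 for Lyz1, 212 for Saa3, 4.59 for Chil3 and 4.999 for Lcn2. The order of some genes turned with the length used. Per kb of all annotated exons joined, which for Saa3 and Lcn2 are much longer, the means in lasered rMG were 45.1 for Saa3, 1.74 for Lcn2 and 4.32 for Chil3, with Lyz1 and Lyz2 as before. Saa3 was above Lyz1 in 3 of 4 lasered libraries by transcript length and in none by joined exons, so the 2 genes cannot be ranked in lasered rMG, nor can Lcn2 and Chil3. By both lengths Lyz2 was first in both groups and Saa3 was below Lyz1 in each unlasered library.

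The 5 genes did not follow a single order across the libraries. As a description over 7 libraries, which share their group difference, Pearson's r of log2(CPM + 1) was 0.87 between Saa3 and Lcn2 but 0.32 after the group means had been subtracted. Between Lyz2 and Chil3 it was 0.83, and 0.87 after that subtraction. Between Saa3 and Lyz2 it was 0.34, and 0.49 after subtraction, and between Saa3 and Chil3 it was 0.12, and 0.69 after subtraction. In the lasered group Saa3 was highest in replicate 1, followed by 3, 2 and 4, whereas Lyz2 was highest in replicate 2, followed by 1, 3 and 4.

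Among 9081 protein-coding genes with a mean of at least 10 CPM, those most like Saa3 included the interferon-induced Oasl1 (r = 0.990) and Mkl2, a coactivator of serum response factor (r = 0.989). After subtracting group means their r was 0.948 and 0.906. Oasl1 had 22.0 to 23.7 CPM in unlasered and 32.9 to 56.9 CPM in lasered libraries, and like Saa3 was highest in lasered replicate 1 and lowest of its group in replicate 4. The genes most like Lcn2 were Cd302, Mrrf and Atxn10 (r = 0.993, 0.978 and 0.975). Cd302, a lectin receptor of phagocytes, had 75.7 to 93.3 CPM in unlasered and 95.8 to 105 CPM in lasered libraries, a far smaller range than Lcn2. Beside each other, Lyz1 and Lyz2 were most like Sirpb1c and Sirpb1b, closely related receptor genes of myeloid cells, with r between 0.991 and 0.996. Sirpb1c had 17.1, 4.64 and 14.5 CPM in unlasered and 25.3, 38.2, 9.39 and 3.20 CPM in lasered libraries, in the same order as Lyz2. The genes most like Chil3 were Gm43362, Aig1 and Ripk4, with r between 0.952 and 0.964. Likeness was used to choose these genes, so the r values are descriptions.

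Genes around the members were examined next in 4 lists, chosen with earlier results of these data known. Of their 52 tested genes 6 passed (11.5%), beside 6.93% of all genes tested. As the lists were chosen with these data known, nothing is read from this count. Among the 6 was Lrp2, which entered the test only through the unlasered libraries. Of 31 further secreted acute phase and antimicrobial genes, 12 were expressed highly enough to be tested, 1 rose and none fell, with a median log2 fold change of 0.32 beside -0.01 over all genes tested. The gene that rose was C3, the central complement component, with 24.1, 29.0 and 109 CPM in unlasered and 139, 152, 188 and 130 CPM in lasered libraries. Its log2 fold change was 1.80 (SE 0.44, adjusted p = 0.044, limma), and part of its reads were listed jointly with an overlapping gene. C3 passed in 3 of 14 alternatives, and in 1 of 7 leave-outs, without unlasered replicate 3, its highest unlasered library (adjusted p between 0.0043 and 0.117 over limma, edgeR and DESeq2 fits). The 4 most abundant other genes of the list did not pass. Ceruloplasmin (Cp), a copper-carrying ferroxidase, had 687 to 900 CPM in unlasered and 918 to 1250 CPM in lasered libraries (log2 fold change 0.40, adjusted p = 0.13, limma). Pla2g7, which inactivates platelet-activating factor, had a log2 fold change of -0.23. Pglyrp1, which binds peptidoglycan, and Ear2, an eosinophil-associated ribonuclease, had log2 fold changes of -1.48 (SE 0.57) and -1.34 (SE 0.74), with adjusted p of 0.16 and 0.32 (limma).

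Of 13 receptors for the member proteins, 12 were tested, of which none rose and 1 fell, with a median log2 fold change of -0.13. Lrp2 (megalin), an endocytic receptor that takes up lipocalin 2, fell from 2.40, 2.07 and 2.17 CPM to 0.476, 0.646, 0.632 and 0.485 CPM, a log2 fold change of -1.04 (SE 0.17, adjusted p = 0.014, limma). It passed the minimum level only through the unlasered libraries, the group in which it is high, so this call adds no support. The most abundant genes of this list did not pass. Tlr2 had 273 to 338 CPM in unlasered and 357 to 446 CPM in lasered libraries without overlap (log2 fold change 0.34, adjusted p = 0.15, limma). Cd14 had a log2 fold change of -0.28, P2rx7 of -0.08 and Scarb2 of 0.25, with adjusted p of 0.38, 0.78 and 0.23 (limma).

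Among 21 cytokines and receptors upstream of acute phase genes, 14 were tested, of which 2 rose and none fell, with a median log2 fold change of 0.03. Il1rn, the antagonist of the interleukin-1 receptor, had 6.85, 3.42 and 8.36 CPM in unlasered and 15.6, 47.0, 26.2 and 19.1 CPM in lasered rMG. Its log2 fold change was 1.90 (SE 0.38, adjusted p = 0.025, limma). Il1a, an interleukin-1 ligand, had 4.60, 5.78 and 7.72 CPM without and 13.1, 14.1, 27.5 and 10.9 CPM with laser, a log2 fold change of 1.25 (SE 0.31, adjusted p = 0.045, limma). The groups did not overlap for either gene. Il1rn lost its call without unlasered replicate 2, lasered replicate 2 or lasered replicate 3 and Il1a in 5 of 7 leave-outs, with adjusted p reaching 0.128 and 0.121 over all alternatives fitted with limma, edgeR or DESeq2. The most abundant genes of the list were the receptor chains Il4ra, Tnfrsf1b, Il10ra and Il13ra1, whose log2 fold changes lay between 0.03 and 0.42 and did not pass.

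Of 16 transcription factors and signalling regulators listed around the members, 14 were tested, of which 2 rose and none fell, with a median log2 fold change of 0.16. Socs3, a feedback inhibitor of STAT3 signalling, had 68.4, 59.9 and 92.3 CPM in unlasered and 164, 166, 126 and 134 CPM in lasered rMG. Its log2 fold change was 1.01 (SE 0.18, adjusted p = 0.016, limma). Relb, a subunit of NF-kB, had 33.3, 35.8 and 39.4 CPM without and 49.5, 60.4, 49.7 and 53.1 CPM with laser, a log2 fold change of 0.54 (SE 0.14, adjusted p = 0.048, limma). Relb kept its call in 1 of 7 leave-outs, without unlasered replicate 3, and Socs3 in all but those of lasered replicates 1 and 2. Spi1 (PU.1), Stat3 and Stat6 had log2 fold changes of -0.12, 0.30 and 0.19 and did not pass, nor did Irf8 with -0.04.

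**Figure D3:**
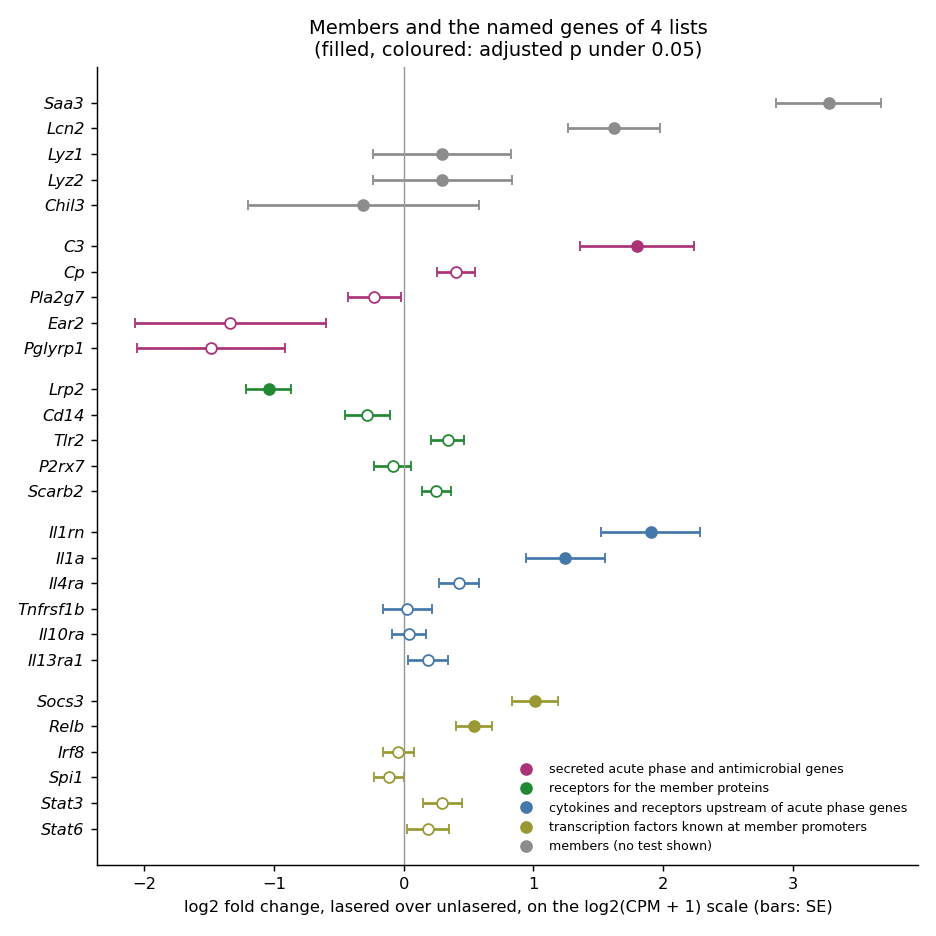
Log2 fold change, lasered over unlasered, on the log2(CPM + 1) scale for the 5 members (grey) and the named genes of the 4 lists (coloured), with standard errors as bars and filled coloured points for an adjusted p under 0.05. C3, Il1rn, Il1a, Socs3 and Relb are filled to the right of 0 and Lrp2 to the left, and the bars of Lyz1, Lyz2 and Chil3 cross 0.

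Genes that mark other cells were measured beside the members, since the sort removed Ly6C+ and Ly6G+ cells but lysozyme, lipocalin and Ym1 are also made by monocytes and neutrophils. The 13 neutrophil markers summed to 302 to 468 CPM in unlasered and 375 to 438 CPM in lasered libraries, of which Csf3r alone gave 301 to 466 and 353 to 435 CPM. Ly6g had between 0 and 3 reads and Mpo between 0 and 1 read per library. Elane, Ngp and Retnlg had at most 15, 3 and 1 reads, and Camp and Ltf at most 21 and 27. S100a8 had 147, 3 and 32 reads in unlasered and 77, 308, 13 and 10 reads in lasered libraries, and S100a9 was highest in the same libraries with 71 and 53 reads. Mmp9 had 34, 3 and 1 reads without and 426, 128, 0 and 3 reads with laser. In these 3 genes the groups overlapped. In Cxcr2 and Mmp8 they did not. Cxcr2, a chemokine receptor, had 3, 1 and 2 reads in unlasered and 242, 226, 593 and 39 reads in lasered libraries, the latter 5.48, 5.03, 12.9 and 1.05 CPM (higher in 4 of 4 lasered libraries, adjusted p = 0.031, limma). Mmp8, a neutrophil collagenase, had 1, 0 and 2 reads without and 116, 257, 79 and 33 reads with laser (higher in 4 of 4 lasered libraries, adjusted p = 0.034, limma). Each kept its call in 1 of 7 leave-outs, without lasered replicate 4. Both passed the minimum level only through lasered libraries, the group in which they are high, so these calls add no support. Both were lowest among lasered libraries in replicate 4, as was Saa3. The highest lasered library was replicate 3 for Cxcr2, replicate 2 for Mmp8 and replicate 1 for Saa3, and Lcn2 was lowest in replicate 2. The part of such cells in the levels of Saa3 and Lcn2 was not tested.

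The 10 monocyte markers summed to 103 to 326 CPM in unlasered and 119 to 360 CPM in lasered libraries, and none passed the test. Of the 8 tested, 6 had a positive log2 fold change, largest in Ccr2, whereas Plac8 (-0.88) and Itga4 (-0.15) had a negative one. Ccr2, a chemokine receptor of monocytes, had 5.63, 6.37 and 14.2 CPM without and 81.5, 128, 19.7 and 7.57 CPM with laser (log2 fold change 2.03, SE 0.83, adjusted p = 0.19, limma). Within the lasered group its order, replicate 2, then 1, 3 and 4, was that of Lyz1 and Lyz2, and replicates 1 and 2 were also the highest for Chil3. The match did not hold in the unlasered group, where Ccr2 was highest in replicate 3 and Lyz1, Lyz2 and Chil3 in replicate 1. Plac8 had the order of Lyz1 and Lyz2 within both groups. Its levels were 47.0, 9.78 and 45.6 CPM without and 27.3, 39.6, 10.6 and 3.58 CPM with laser. Each other marker of the list differed from Lyz2 in the order of at least 1 group. Ly6c2 was at 0.392 to 0.527 CPM in unlasered and 0.0436 to 0.891 CPM in lasered libraries. The 10 border macrophage markers summed to 1639 to 2301 CPM in unlasered and 1424 to 1826 CPM in lasered libraries, with Siglec1 higher (log2 fold change 1.88, SE 0.35, adjusted p = 0.019, limma) and Pf4 lower (log2 fold change -0.89, SE 0.19, adjusted p = 0.029, limma) after laser, and the others of 8 tested not called. Siglec1 kept its call in 5 and Pf4 in 2 of 7 leave-outs. Of all genes tested, 6.93% were called. Of 8 markers of Müller glia and astrocytes, 7 were tested, of which 1 was called higher and 1 lower, beside 6.93% of all genes tested. The 8 genes summed to 681 to 959 CPM in unlasered and 321 to 714 CPM in lasered libraries. Dkk3 was lower after laser (164 to 225 CPM against 91.3 to 113 CPM, adjusted p = 0.014, limma) and kept its call in 7 of 7 leave-outs. Gfap had 0, 0 and 55 reads without and 171, 98, 174 and 106 reads with laser (adjusted p = 0.031, limma), a call kept in 1 of 7 leave-outs, that of unlasered replicate 3. Gfap passed the minimum level only through the lasered libraries, the group in which it is high, so its call adds no support. The part of glial RNA in the levels of Saa3 and Lcn2 was not tested. In pooled cells, more cells of a type and more RNA per cell cannot be told apart, and the part of monocytes or macrophages in the levels of Lyz2 and Chil3 was not tested.

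**Figure D4:**
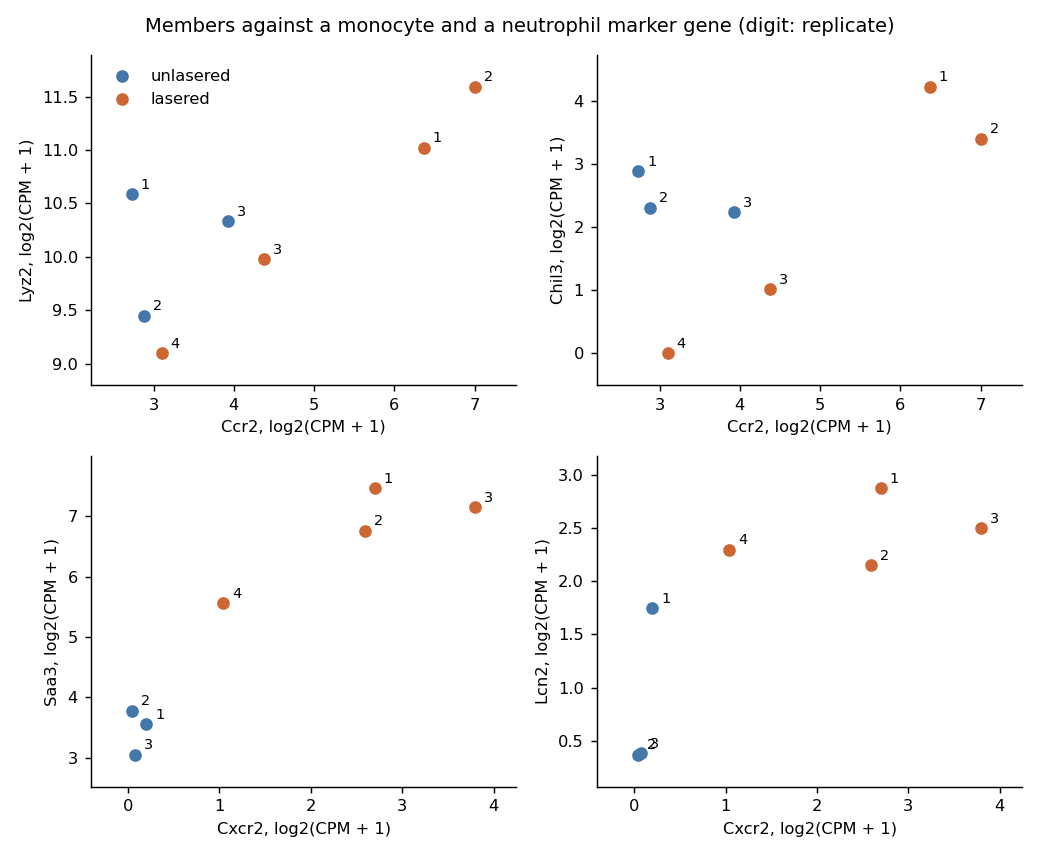
Members (vertical axes) against Ccr2, a monocyte marker, or Cxcr2, a neutrophil marker (horizontal axes), all as log2(CPM + 1), with each of the 7 libraries as a point (blue unlasered, orange lasered, digit for the replicate). Of 5 neutrophil markers tested, 2 were called, Cxcr2 and Mmp8, beside 6.93% of all genes tested, and no monocyte marker was called. Cxcr2 and Mmp8 passed the minimum level only through lasered libraries, so nothing is read from this count. Lyz2 and Ccr2 put the 4 lasered libraries in the same order but differ in the order of the unlasered ones. Plac8, a monocyte marker not shown, had the order of Lyz2 within both groups. Saa3 and Cxcr2 are both lowest in replicate 4 among the lasered libraries but highest in different ones, replicate 1 for Saa3 and replicate 3 for Cxcr2.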

How the data were processed

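RNA-seq was available for 7 libraries of sorted Irf8 KO rMG (SMARTer v4, Nextera XT, single reads). Per the methods, reads were trimmed with cutadapt, freed of duplicates with FastUniq, mapped with bowtie2 to the mouse genome (GRCm38 in the submitters' processing notes), assigned to genes by HTSeq under gene annotation release 90 and normalised. The values deposited by the authors are headed TPM but are CPM, which sum to 1e+06 per library and carry no correction for length. In each library 100% of values were whole multiples of 1 read within 5.1e-05 CPM, and the reads so recovered were used only in alternatives. Of 40743 listed genes, 4492 hold reads listed jointly with an overlapping gene, and 99.7% were matched to GENCODE M21. None of the members has joint reads.

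Values were used as log2(CPM + 1). A gene was tested where 3 or more libraries reached 1 CPM, which left 17496 genes. All 7 libraries entered 1 limma fit (limma 3.58.1, R 4.3.3, trend and robust empirical Bayes, two-sided, Benjamini-Hochberg over all genes tested), and an adjusted p under 0.05 counted as a call. Fold changes on this scale understate changes of low genes. Replicates are separate pools per the labels. The floor was set at 3 reads, and intervals of shares are exact (Clopper-Pearson, 95%). Floors and intervals cover counting error only. The test was tested on simulated data.

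The members and gene lists were chosen with earlier results of these data known. Named genes are the members, the 3 genes with the highest Pearson r to each (1 of them is not reported here), and from each list all called genes and up to 4 with the highest mean level. Marker genes were added from fixed lists, and those named singly among them, with the Saa1, Saa2, Saa4 and Chil4 values, after their values were seen. Alternatives were another pseudocount, other filters and scaling, edgeR 4.0.16 and DESeq2 1.42.0 on recovered reads, a replicate block, leaving out genes with joint reads and each library in turn. Because the deposited values give 1 sum per gene, joint reads could be left out only by leaving out the gene.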

Additional observations from a re-analysis of the deposited data

Results flagged for a closer look

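Of 37 measures checked over the 4 lasered libraries (members, named genes, marker sums and shares of gene pairs), 1 had a library standing far from the rest. Irf8 had 582 CPM in lasered replicate 4, against 463 to 475 CPM in the other lasered libraries, so that the gap made up 0.897 of the whole range (Dixon's criterion for 4 samples). These reads include those listed jointly with Gm20388. Chance marks about 1 in 20 such groups. The same library was the lowest of the lasered group for Saa3, Lyz1, Lyz2 and Chil3, none of which met the criterion. The unlasered group, with 3 libraries, could not be checked in this way.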

How the results depend on the processing

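The log2 fold change of Saa3 lay between 3.03 and 3.67 over 15 alternatives, and that of Lcn2 between 1.39 and 2.64 over 14. That of Lcn2 was 2.64 with a pseudocount of 0.1, 2.28 with edgeR and 2.25 with DESeq2, since adding 1 CPM compresses low values. Lyz1 and Lyz2 were positive in 13 of 15 alternatives and slightly negative (lowest -0.09) without unlasered replicate 2 or lasered replicate 2. Chil3 was positive in 5 of 14 alternatives, from -1.14 with a pseudocount of 0.1 to 0.57 on recovered reads. Of the 5 members, 2 were called with all libraries, beside 6.93% of all genes tested. Without a filter and with edgeR 1 was called, and 1 to 2 without 1 library. At a mean of at least 10 CPM 1 was called, but that filter took Lcn2 and Chil3 out of the fit.

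The number of genes called, 1213, was 385 without a filter on low values, 626 at a mean of at least 10 CPM, 2318 with DESeq2 and 262 (without lasered replicate 2) to 1406 (without unlasered replicate 3) without 1 library. Median-of-ratios scaling gave 1438 calls, of which 935 were higher, against 676 of 1213. For the 4 pathway lists together, 6 genes were called, 2 without a filter, 3 at a mean of at least 10 CPM, 10 with DESeq2 and 1 to 8 without 1 library. The cause was not tested. After subtracting group means, the lowest r of the 3 genes most like a member was 0.906 for Saa3 (0.989 before), 0.907 for Lcn2 (0.975), 0.995 for Lyz1 (0.992) and 0.995 for Lyz2 (0.991).

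Replicate numbers did not pair the samples, with correlations of -0.18, -0.13 and -0.02 between deviations of same-numbered libraries. With the replicate number as a block, 3 libraries per group gave 3 calls in all, 0 in the pathway lists and 0 of the 5 members.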
